A study of Mus musculus with 3 samples.

Results

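The 5 genes described here encode the phagocyte NADPH oxidase as it was listed for this work: Cybb, Cyba, Ncf1, Ncf4 and Rac2. They were chosen by name, with no measured value in the rule, and are 5 of the 32285 genes in the deposited tables, where each symbol was found once. Splenocytes had been depleted of T cells with CD3 microbeads and read as single cells by the 10x Genomics 5′ assay in 3 libraries. Each library joined 2 conditions, with 3 mice combined per condition, and mice were 12 to 14 weeks old. The control library joined male C57BL/6 mice after sham surgery with female C57BL/6 animals. For the Ang II library, C57BL/6 mice carried minipumps with angiotensin II (Ang II, a peptide that raises blood pressure) for 2 weeks from 10 weeks of age, at 490 ug/kg/min as the labels state it, with placebo or with 2HOBA, a scavenger of isolevuglandins. The third library, B6.SLE123, came from a lupus-prone strain of that name on the C57BL/6 background, given placebo or 2HOBA for 6 weeks from 7 weeks of age. Cells carried hashtag antibodies numbered C0301 to C0306, and no label ties a hashtag to a condition, so the effect of 2HOBA was not analysed here. The 6 hashtag populations of a library are given as single values or as ranges.

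Background on the enzyme is as follows. Cybb encodes gp91phox, the catalytic subunit that carries electrons from NADPH across a membrane to oxygen, and Cyba encodes p22phox, the membrane partner that holds gp91phox stable. In a resting phagocyte the organizer p47phox (Ncf1) and the adaptor p40phox (Ncf4), which binds a phosphoinositide of the phagosome membrane, lie in the cytosol, and on stimulation they move to the membrane pair together with a Rac GTPase, which in blood cells is largely Rac2. The assembled enzyme makes superoxide, which neutrophils and monocytes use against microbes and from which B cells also draw signals. Loss of gp91phox, p22phox, p47phox or p40phox causes chronic granulomatous disease. Isolevuglandins, which the study concerns, form when such oxidants attack fatty acids, and this is why the genes were singled out.

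On mouse build GRCm38 (GENCODE annotation) Cybb lies on chromosome X from 9435252 to 9487771, Cyba on chromosome 8 from 122424776 to 122432930, and Ncf1 on chromosome 5 from 134220053 to 134229625, all on the minus strand. Ncf4 lies on chromosome 15 from 78244801 to 78262580 on the plus strand, and Rac2 on the same chromosome from 78559167 to 78572783 on the minus strand, 297 kb from Ncf4. The identifiers of all 5 in the files matched this annotation. Promoter windows of 270 bases (250 before and 20 after the annotated start) were in the RefSeq table for GRCm38.p6 for 3 of the 5 genes. They are shown because PU.1 and interferon regulatory factors are known to act at oxidase promoters, and capitals mark the motifs searched on both strands, GAGGAA for the PU.1 core and GAAA, then NN, then GAAA for a repeat that interferon regulatory factors can bind:
Cybb, chrX:9469305-9469574, minus strand: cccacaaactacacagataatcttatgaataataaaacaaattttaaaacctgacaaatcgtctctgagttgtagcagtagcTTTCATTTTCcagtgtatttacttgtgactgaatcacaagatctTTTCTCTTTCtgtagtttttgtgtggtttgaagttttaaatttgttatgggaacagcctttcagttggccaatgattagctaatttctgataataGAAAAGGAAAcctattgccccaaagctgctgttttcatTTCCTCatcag
Cyba, chr8:122432921-122433190, minus strand: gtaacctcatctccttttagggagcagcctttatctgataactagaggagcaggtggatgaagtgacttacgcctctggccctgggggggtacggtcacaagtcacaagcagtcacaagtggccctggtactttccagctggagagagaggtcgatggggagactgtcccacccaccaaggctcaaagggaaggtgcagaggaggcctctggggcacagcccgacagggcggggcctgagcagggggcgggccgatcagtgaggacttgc
Ncf1, chr5:134229606-134229875, minus strand: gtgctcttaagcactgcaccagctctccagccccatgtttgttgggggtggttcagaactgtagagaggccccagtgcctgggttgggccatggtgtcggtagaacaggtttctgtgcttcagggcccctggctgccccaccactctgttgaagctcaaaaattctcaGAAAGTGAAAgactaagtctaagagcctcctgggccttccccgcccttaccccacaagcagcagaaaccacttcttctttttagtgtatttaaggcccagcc
The Cybb start in RefSeq lies inside the span that GENCODE gives the gene. The Cybb window held 3 matches of the interferon regulatory factor repeat, first bases at -168, -124 and -29 from the start, and 1 match of the PU.1 core letters at +10, none of which overlapped another. The Ncf1 window held 1 match of the repeat, at -82, and the Cyba window held no match of either motif in these letters. Of all 32851 windows of the same length, 3.21% held the repeat and 25.1% held the PU.1 core letters. The Cybb window was 34.1% GC, against 60.0% for Cyba, 54.1% for Ncf1 and a median of 52.6% over all windows. A match is a run of letters and not a measured site.

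After the limits on cells and removal of barcodes with several hashtags, 15700 control, 14017 Ang II and 16702 B6.SLE123 cells were kept, with 33796208, 45473719 and 43124073 gene UMIs (unique molecular identifiers, 1 per captured RNA molecule). The median depth per kept cell was 1759, 2724 and 1888 UMIs. The Ang II library was thus the deepest, and all levels below are CPM, the UMIs of a gene per 1000000 gene UMIs of the same cells. Classes are gates on marker genes, are called "-like" for that reason, and left 3.15% to 5.24% of kept cells unplaced. T cells had been depleted, and T cell-like cells numbered 9 in the control, 304 in the Ang II and 8 in the B6.SLE123 library. Of the barcode sequences of kept cells, 957 occurred in 2 libraries and 10 in 3. Xist, the transcript of the inactive X chromosome, was found in 0.165% to 0.386% of cells of control hashtags C0301 to C0303 and in 49.2% to 51.7% of C0304 to C0306, in 0% of cells of each Ang II hashtag and in 46.6% to 54.9% of each B6.SLE123 hashtag. The share of sexes therefore moved with both comparisons made below, and its part in any difference was not tested. Going by the label of the control library, its hashtags C0301 to C0303 would be the male sham mice and C0304 to C0306 the females. Sex and sham surgery cannot be told apart within that library. In pooled counts, fewer cells of a type and less RNA per cell cannot be told apart. There was 1 library per group and so no test. Every interval below is a 95% interval for counting error alone.

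Cybb, the catalytic subunit, had its highest median over the libraries in immature neutrophil-like cells, at 1201 CPM in the control, 1234 in the Ang II and 1158 in the B6.SLE123 library. Nonclassical monocyte-like cells (1380, 1176 and 1137 CPM in the same order) and classical monocyte-like cells (1261, 1107 and 915 CPM) came next, and the ranges of these 3 classes over the libraries overlapped. Plasmacytoid dendritic cell-like cells, which make type I interferon, followed at 542, 703 and 665 CPM. Among B cell-like cells, the marginal zone B cell-like cells had 316, 305 and 309 CPM, and follicular B cell-like cells 196, 176 and 243 CPM. Cybb was higher in the marginal zone class in each of the 18 hashtag populations, and the log2 ratio between the classes was 0.69 (0.60 to 0.79) in the control, 0.79 (0.70 to 0.88) in the Ang II and 0.35 (0.25 to 0.45) in the B6.SLE123 library. The median ratio over all genes with at least 50 UMIs was between -0.12 and -0.08 for the same pair of classes.

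Mature neutrophil-like cells stood far below immature ones for Cybb. The mature class had 41.7 CPM (27.0 to 61.6, from 25 UMIs in 505 cells) in the control, 72.7 CPM (55.6 to 93.3, 61 UMIs) in the Ang II and 109 CPM (77.9 to 148, 40 UMIs) in B6.SLE123. NK cell-like cells, in which the oxidase is not known to have a role, had 25.1, 12.0 and 29.4 CPM, so the control value of mature neutrophil-like cells overlapped this background in its interval. The log2 ratio of mature to immature was -4.85 (-5.48 to -4.27), -4.09 (-4.48 to -3.72) and -3.41 (-3.90 to -2.96) in the 3 libraries, and Cybb was lower in the mature class in 9 of the 9 hashtag populations with at least 20 cells of both. The other subunits differed far less between these classes. The ratio was between -0.59 and -0.43 for Cyba, between -0.85 and -0.77 for Ncf1 and between -0.67 and -0.35 for Ncf4, while Rac2 was between 0.07 and 0.24. The median over all genes tested in this pair was 0.70, 0.39 and 0.15. The classes also differed in depth, with a median of 1081, 1704 and 862.5 UMIs per mature and 5564.5, 7778.5 and 5108.5 per immature cell. At the low end, type 1 conventional dendritic cell-like cells (cDC1-like) held 0 Cybb UMIs in 21 control cells and in 31 Ang II cells, which allows up to 23.3 and 14.3 CPM, and 6 UMIs in 56 B6.SLE123 cells. Type 2 cells (cDC2-like) held 272, 234 and 166 CPM. Basophil or mast cell-like cells held 0, 0 and 1 Cybb UMIs.

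**Figure D1:**
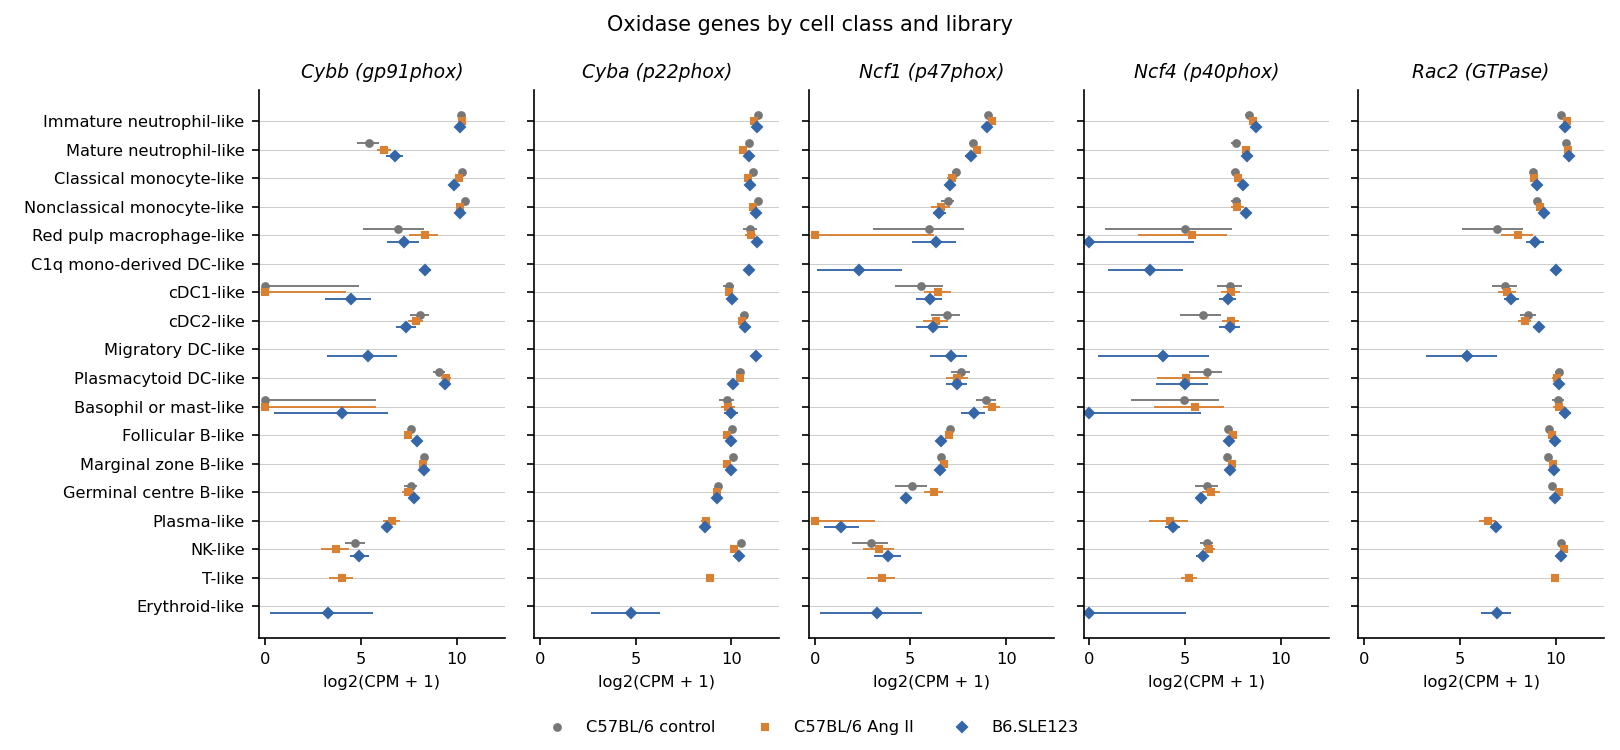
Level of each oxidase gene as log2(CPM + 1) on the x axis in each marker-gated class (rows) with at least 20 cells, with 1 point per library and bars for the 95% counting interval. In the control library Cybb stands at 1201 CPM in immature and 41.7 CPM in mature neutrophil-like cells, a step that the other 4 genes do not show.

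Cyba, the membrane partner, was the most widely spread of the membrane pair. Its median over the libraries was highest in immature neutrophil-like cells, at 2556 CPM, and lowest in 22 erythroid-like cells of the B6.SLE123 library, at 26.1 CPM, a 98.0-fold range over 18 classes. Nonclassical monocyte-like cells (2645, 2208 and 2461 CPM), red pulp macrophage-like cells (2011 to 2582 CPM) and classical monocyte-like cells (2240, 1831 and 2038 CPM) overlapped with one another. NK cell-like cells, at 1450, 1112 and 1321 CPM, held Cyba well above their Cybb background, and cDC1-like cells, where Cybb was at or near 0, held 922 to 1058 CPM. Germinal centre B cell-like cells had 636, 597 and 598 CPM against 1053, 864 and 1001 in follicular ones, lower in 8 of 8 hashtag populations with at least 20 cells of both classes. Of these 8 populations, 6 were of the B6.SLE123 library, 1 of the control and 1 of the Ang II library.

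Ncf1, the organizer, had another order. Immature neutrophil-like cells (529, 604 and 513 CPM) and basophil or mast cell-like cells (498, 609 and 315 CPM, from 34, 41 and 21 UMIs) overlapped at the top, so that the basophil class had a high Ncf1 with almost no Cybb. Mature neutrophil-like cells kept 304, 354 and 284 CPM. Follicular B cell-like cells had 134, 130 and 96.2 CPM, marginal zone ones 97.0, 108 and 93.8 CPM, and germinal centre ones 33.2, 74.1 and 26.7 CPM. Germinal centre cells were lower than follicular ones in the same 8 of 8 hashtag populations, 6 of them of the B6.SLE123 library. The log2 ratio was -2.01 (-2.97 to -1.21) in the control, -0.81 (-1.33 to -0.34) in the Ang II and -1.85 (-2.17 to -1.54) in the B6.SLE123 library. Plasma cell-like cells, which secrete antibody, held 4 Ncf1 UMIs in 244 B6.SLE123 cells (1.58 CPM, 0.429 to 4.03) and 0 in 27 Ang II cells, at or below the NK cell-like background of 6.69 to 13.4 CPM.

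Ncf4, the adaptor, was highest in immature neutrophil-like cells (320, 366 and 417 CPM), followed by mature ones (200, 286 and 297 CPM), classical monocyte-like cells (190, 217 and 256 CPM) and nonclassical ones (199, 210 and 283 CPM), and the ranges of the last 3 overlapped. Germinal centre B cell-like cells were again below follicular ones, at 69.1, 80.3 and 55.2 against 148, 177 and 155 CPM, in the same 8 of 8 hashtag populations, 6 of them of the B6.SLE123 library. Plasmacytoid dendritic cell-like cells, high in Cybb and Ncf1, held only 69.2, 32.3 and 30.8 CPM of Ncf4. Migratory dendritic cell-like cells, red pulp macrophage-like cells and basophil or mast cell-like cells held at most 3 Ncf4 UMIs per library, in gates of at most 74 cells.

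Rac2, the GTPase, was found beyond the phagocytes. Mature neutrophil-like cells (1453, 1583 and 1674 CPM) and immature ones (1227, 1504 and 1436 CPM) overlapped at the top. NK cell-like cells (1240, 1368 and 1254 CPM) and basophil or mast cell-like cells (1113 to 1427 CPM) overlapped the immature class and lay below the mature one. B cell-like classes other than plasma cells lay between 767 and 1164 CPM, and classical and nonclassical monocyte-like cells lower, between 446 and 667 CPM. Plasma cell-like cells held 86.7 and 117 CPM in the 2 libraries with at least 20 of them, and were lower than follicular cells by a log2 ratio of -3.37 (-3.85 to -2.92) in the Ang II and -3.06 (-3.23 to -2.89) in the B6.SLE123 library, where the median of all genes was -1.64 and -1.28.

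The C1q monocyte-derived dendritic cell-like class needed 4 of the 6 genes C1qa, C1qb, C1qc, Fcgr4, Cxcl14 and Itgax, so its gate does not show a monocyte origin. By this gate it was found in the B6.SLE123 library alone, with 104 cells against 0 in the other libraries. The study, which used clusters, reports such cells in C57BL/6 mice too. In the gated class Cybb stood at 325 CPM (258 to 404) and Cyba at 1919 CPM. Ncf1 was found in 1 UMI and Ncf4 in 2 UMIs, against 131 and 256 CPM in classical monocyte-like cells of the B6.SLE123 library. Rac2 stood at 1044 CPM against 515 CPM, a log2 difference of 1.02 (0.80 to 1.23). Of the cells in the C1q class, 63.5% passed the gate of another class too. Only 1 hashtag population held at least 20 cells of both this class and the classical monocyte-like class.

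B cell-like cells made up 78.2% to 84.7% of kept cells and held most UMIs of each oxidase gene. For Cybb and Cyba this was in spite of lower levels than in neutrophil-like and monocyte-like cells. Rac2 was higher in B cell-like (798 to 977 CPM) than in monocyte-like cells (471 to 569 CPM). B cell-like cells held between 60.3% and 63.3% of a library's Cybb UMIs, monocyte-like cells 23.1%, 11.4% and 15.4%, and neutrophil-like cells 9.67%, 24.5% and 17.6%. A Cybb value over all cells is therefore mostly a B cell value with a phagocyte part that changed with the libraries.

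Levels per cell were compared as the share of cells with at least 1 UMI after each cell with 1000 or more UMIs was thinned to 1000. Cybb was found in 72.4% (68.1% to 76.4%) of control, 63.3% (56.4% to 69.7%) of Ang II and 63.2% (59.4% to 67.0%) of B6.SLE123 monocyte-like cells, and in 17.5%, 15.7% and 20.4% of B cell-like cells. The background in NK cell-like cells was 1.09%, 0% (0 of 395 cells, which allows up to 0.759%) and 1.83%. Immature neutrophil-like cells gave 55.0% (45.2% to 64.6%), 67.1% (60.6% to 73.2%) and 70.7% (65.4% to 75.6%), and mature ones 1.99%, 3.60% and 8.94%, of which the control share overlapped the background in its interval. Both membrane subunits, Cybb and Cyba, were found together in 48.6%, 58.7% and 66.4% of immature neutrophil-like, 63.0%, 54.0% and 55.4% of monocyte-like and 11.1%, 8.53% and 12.3% of B cell-like cells. At least 4 of the 5 genes were found in 25.7%, 33.8% and 34.0% of immature neutrophil-like cells, in 9.13%, 6.98% and 9.15% of monocyte-like cells and in 2.07%, 2.05% and 2.07% of B cell-like cells. Thinning left out 203 of 505, 35 of 424 and 223 of 346 mature neutrophil-like cells, which were too shallow, so their shares describe the deeper cells. Without thinning, Cybb was found in 3.96%, 8.25% and 6.36% of all mature and 94.5%, 94.8% and 93.9% of all immature neutrophil-like cells, in 91.5%, 93.7% and 81.2% of monocyte-like, 30.5%, 36.6% and 37.7% of B cell-like and 2.35%, 3.07% and 3.69% of NK cell-like cells. The median depth was 1729, 2446 and 1348 UMIs in NK cell-like and 1769, 2740 and 1921 in B cell-like cells.

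**Figure D2:**
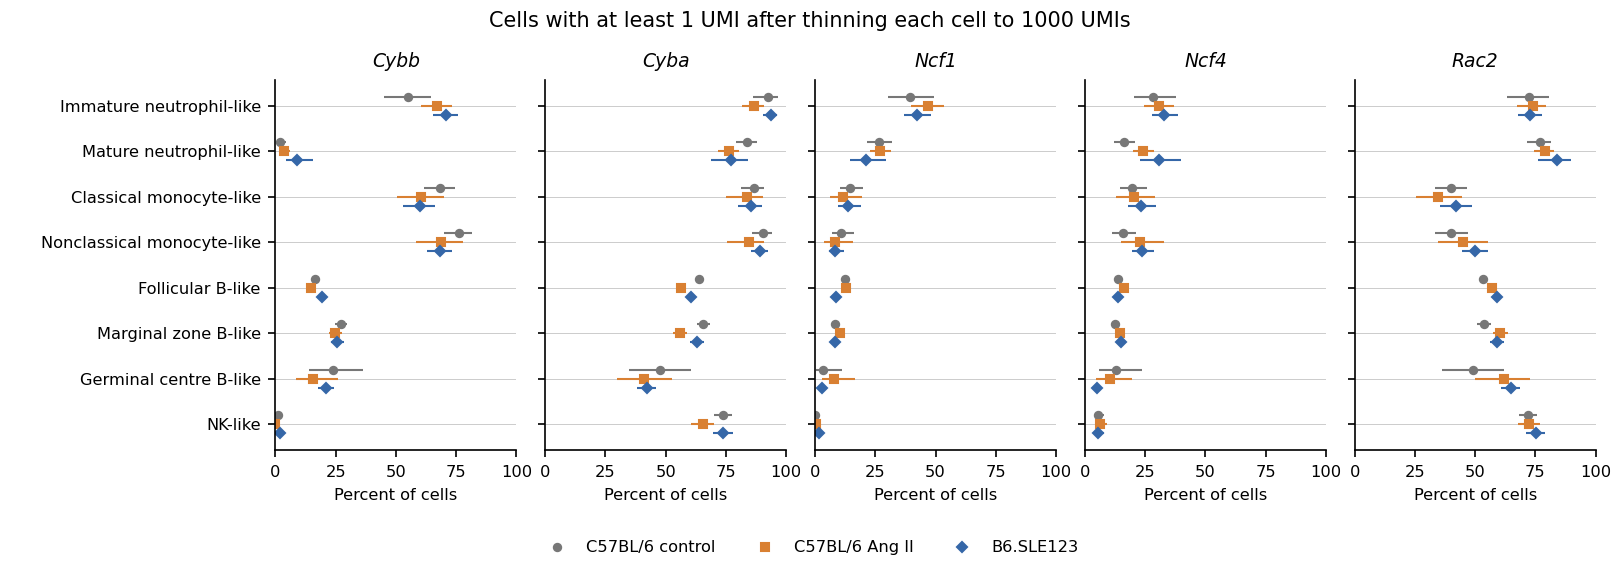
Percent of cells with at least 1 UMI of each oxidase gene (x axis) by class (rows) and library (points), after thinning to 1000 UMIs, with exact 95% binomial intervals as bars. Cybb is found in 55.0% to 70.7% of immature but 1.99% to 8.94% of mature neutrophil-like cells, while Cyba and Rac2 are found in most cells of both.

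Each of the other libraries was then set against the control library, which both comparisons share. Over all kept cells the B6.SLE123 library had 315 CPM of Cybb against 281, 1126 of Cyba against 1199, 101 of Ncf1 against 132, 154 of Ncf4 against 152 and 909 of Rac2 against 803. The log2 ratios were 0.16 (0.13 to 0.20), -0.09 (-0.11 to -0.07), -0.39 (-0.45 to -0.33), 0.01 (-0.04 to 0.07) and 0.18 (0.16 to 0.20). None of the 5 passed 1.5-fold, where 11.0% of all genes with at least 50 UMIs were higher and 8.65% lower by that much. In the Ang II library the levels were 263, 979, 145, 179 and 931 CPM in the same order of genes, with log2 ratios of -0.10 (-0.14 to -0.06), -0.29 (-0.31 to -0.27), 0.14 (0.08 to 0.19), 0.24 (0.18 to 0.29) and 0.21 (0.19 to 0.24), and again none passed, against 5.41% higher and 3.02% lower. Rac2 was above all 6 control hashtags (782 to 820 CPM) in all 6 B6.SLE123 hashtags (870 to 952 CPM) and in all 6 Ang II hashtags (873 to 1023 CPM), as were 7.04% and 3.78% of all genes. The Cybb ratio of the B6.SLE123 library rested on hashtag C0303, which held 10.4% monocyte-like and 10.1% neutrophil-like cells, and was 0.01 without it. That of the Ang II library was 0.01 without control hashtag C0305.

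Among B cell-like cells, Ncf1 was lower and Rac2 higher in the B6.SLE123 than in the control library, each without overlap between the hashtags, and by less than 1.5-fold. None of the 5 genes passed 1.5-fold in either comparison, where 10.1% of all genes were higher and 6.89% lower for B6.SLE123, and 3.91% and 2.38% for Ang II. Ncf1 by hashtag was 105 to 138 CPM in the control (median 128), 115 to 138 in the Ang II (median 123) and 76.4 to 96.2 in the B6.SLE123 library (median 84.8). The lowest control hashtag was thus above the highest B6.SLE123 hashtag, and the log2 ratio was -0.53 (-0.60 to -0.46), where 10.7% of all genes were lower in all 6 hashtags. The Ang II and control ranges overlapped, and the interval of their ratio ran from -0.07 to 0.06. The B6.SLE123 difference stood in follicular B cell-like cells at -0.48 (-0.58 to -0.38), while in marginal zone ones it was -0.05 (-0.27 to 0.17), and the intervals did not overlap. The neutrophil marker list summed in these cells to 130, 255 and 242 CPM in the 3 libraries, with none of its 12 markers at 0, and its part in the Ncf1 difference was not tested.

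Rac2 in B cell-like cells was 768 to 819 CPM in the control hashtags (median 798), 882 to 934 in the Ang II (median 905) and 908 to 1076 in the B6.SLE123 hashtags (median 970). Both sets lay wholly above the control. The log2 ratio was 0.19 (0.16 to 0.21) in Ang II and 0.29 (0.27 to 0.32) in B6.SLE123 cells, and 7.94% and 9.88% of all genes were higher in the same way. Cyba was lower in all 6 Ang II hashtags, at 845 to 934 CPM against 996 to 1101, with a ratio of -0.29 (-0.32 to -0.27) where 4.80% of all genes were lower in this way, and the B6.SLE123 hashtags (957 to 1065 CPM) overlapped the control. Ncf4 was 133 to 169, 161 to 191 and 141 to 166 CPM, and its ranges overlapped in both comparisons.

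Cybb in B cell-like cells had 245 to 285 CPM in the B6.SLE123 hashtags, 193 to 210 in the Ang II hashtags and 179 to 246 in the control hashtags, so the B6.SLE123 and control ranges touched. The log2 ratio of B6.SLE123 to control was 0.26 (0.21 to 0.31), and it was 0.31 (0.24 to 0.38) in follicular and -0.03 (-0.15 to 0.09) in marginal zone B cell-like cells. The control spread followed the Xist share: hashtags C0301, C0302 and C0303, where Xist was nearly absent, had 206, 179 and 198 CPM, and C0304, C0305 and C0306 had 228, 241 and 246 CPM. The Ang II hashtags were all without Xist and lay near the first 3, and the B6.SLE123 hashtags all held Xist. Cybb lies on the X chromosome. By the label of the control library its males were also the sham-operated mice, so sex and surgery cannot be told apart there. The part of either in these differences was not tested.

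**Figure D3:**
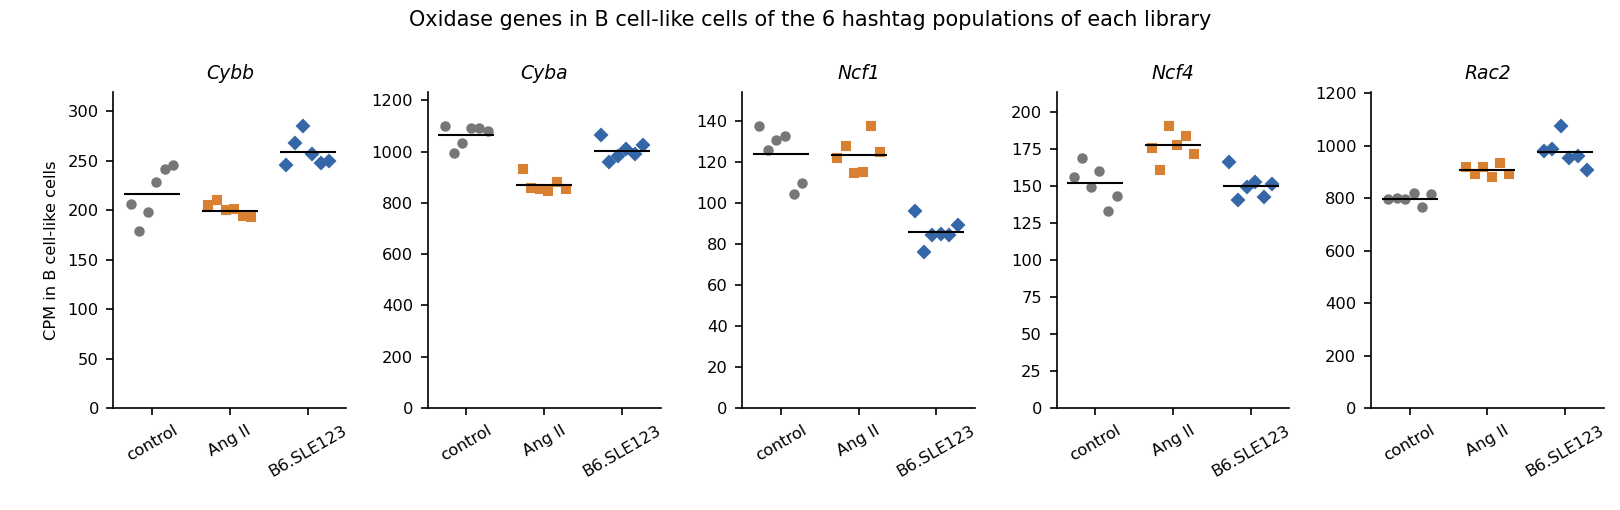
CPM of each oxidase gene (y axes from 0) in B cell-like cells of the 6 hashtag populations of each library, with 1 point per hashtag in order from C0301 to C0306 and a line at the level of the whole library. All B6.SLE123 points lie below all control points for Ncf1 and above them for Rac2, and control points for Cybb span 179 to 246 CPM.

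In neutrophil-like cells both the level of Cybb and the share of immature cells were higher in the Ang II and B6.SLE123 libraries than in the control. Cybb was 679 CPM in the control, 922 in the Ang II and 998 in the B6.SLE123 library, with log2 ratios of 0.44 (0.33 to 0.55) and 0.55 (0.44 to 0.67) to the control, both under 1.5-fold. Without control hashtag C0302 they were 0.68 and 0.79, both past it. In this class 7.95% of all genes were higher and 9.78% lower by that much in Ang II, and 14.9% and 16.7% in B6.SLE123. Immature cells were 17.9% (14.9% to 21.1%) of the immature and mature ones together in the control, 35.4% (31.7% to 39.2%) in the Ang II and 48.8% (45.0% to 52.7%) in the B6.SLE123 library. Within immature neutrophil-like cells the Cybb ratio was 0.04 (-0.07 to 0.15) in the Ang II and -0.05 (-0.17 to 0.06) in the lupus-prone library. None of the 5 genes passed 1.5-fold there, where 11.4% of all genes were higher and 3.43% lower in Ang II, and 19.4% and 3.12% in B6.SLE123. By hashtag, Cybb ranged from 323 CPM, where 8.77% of the cells were immature, and 332 CPM at 4.76%, both in the control, to 1109 CPM at 44.9% in the Ang II and 1119 CPM at 37.5% in the B6.SLE123 library. The hashtag with the highest immature share, B6.SLE123 C0303 at 66.6%, had 1036 CPM, below the B6.SLE123 hashtags C0302 and C0305. The part of class make-up in the Cybb differences was not tested. Cebpe, a transcription factor of granulocyte precursors, stood at 449 to 549 CPM in immature and 19 to 32 CPM in mature neutrophil-like cells, the same direction as Cybb.

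Cybb passed 1.5-fold in mature neutrophil-like cells in both comparisons, with a log2 ratio of 1.39 (0.63 to 2.17) in B6.SLE123 and of 0.80 (0.11 to 1.53) in Ang II cells. It was the only member to do so in this class. With the limits on cells read as UMIs the ratios were 0.57 and -0.080, neither past 1.5-fold. With classes from clusters that of B6.SLE123 was 0.44, not past 1.5-fold, and that of Ang II was -0.68, past it in the lower direction. Of all genes, 8.0% were higher and 10.3% lower by that much in B6.SLE123, and 7.67% and 5.62% in Ang II. The immature neutrophil list summed to 379 CPM in the mature class of the control, 2845 of the Ang II and 4476 of the B6.SLE123 library, with 3, 2 and 2 of its 7 markers at 0. In mature cells without a UMI of the granule genes Ngp, Camp and Ltf, a choice made after the data were seen, Cybb was 40.3 CPM (25.6 to 60.5), 37.9 CPM (23.4 to 57.9) and 48.0 CPM (25.6 to 82.1), and the ratios were 0.25 (-0.85 to 1.29) and -0.09 (-1.02 to 0.83). By hashtag the B6.SLE123 values were 45.3, 41.4, 206, 0 and 0 CPM for C0301, C0302, C0303, C0305 and C0306, so C0303 alone stood above the control range of 23.3 to 53.3 CPM, and without it the ratio was 0.32.

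**Figure D4:**
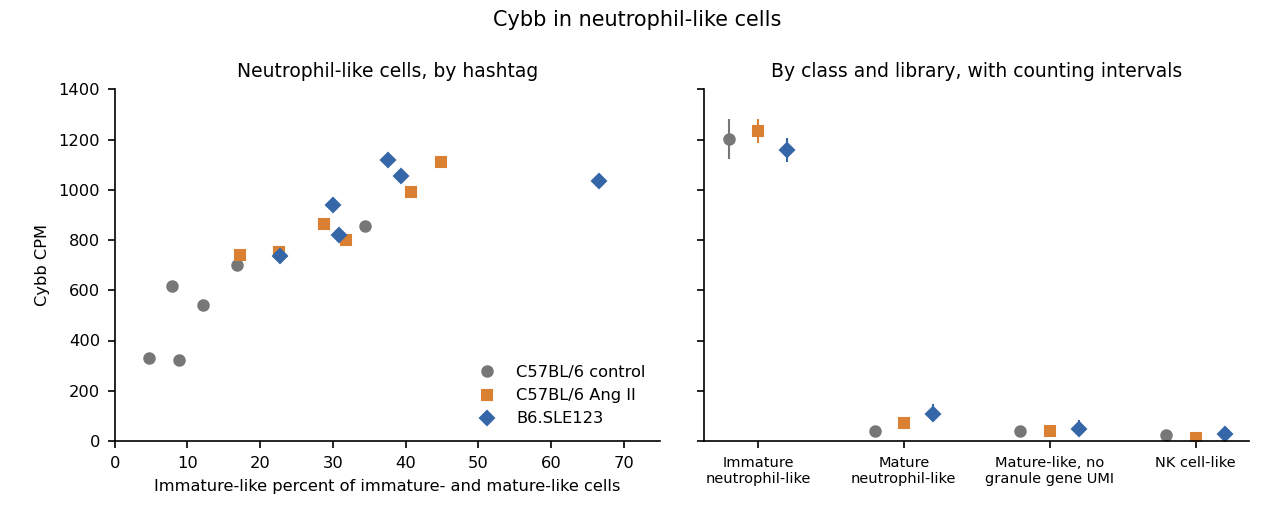
Left, Cybb CPM (y axis) in neutrophil-like cells of each hashtag population against the percent of them that were immature-like (x axis). Right, Cybb CPM by class and library with 95% counting intervals as bars: immature cells lie between 1158 and 1234 CPM in the 3 libraries, and mature cells without granule gene UMIs between 37.9 and 48.0 CPM.

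Ncf4 stood higher in the B6.SLE123 than in the control library in each neutrophil-like and monocyte-like class. In neutrophil-like cells it was 214 to 319 CPM in the control hashtags and 326 to 523 CPM in the B6.SLE123 hashtags, all 6 above, with a log2 ratio of 0.56 (0.38 to 0.74), where 1.55% of all genes were higher in all 6. The smallest hashtag population held 38 such cells in the control and 23 in the B6.SLE123 library. Ncf4 was also higher in immature than in mature cells, and the part of class make-up here was not tested. Without control hashtag C0302 the log2 ratio was 0.73, past 1.5-fold. The ratio was 0.38 (0.17 to 0.60) in immature neutrophil-like cells, where the median of all genes was 0.21 and scaling by TMM moved values by -0.19, 0.57 (0.18 to 0.95) in mature ones, 0.43 (0.16 to 0.70) in classical and 0.51 (0.18 to 0.85) in nonclassical monocyte-like cells. None of these passed 1.5-fold, which 11.2% of all genes did upward and 8.10% downward in classical, and 7.96% and 7.83% in nonclassical monocyte-like cells. The Ang II ratio was 0.35 (0.18 to 0.52) in neutrophil-like and 0.15 (-0.09 to 0.39) in monocyte-like cells. Over all 5 members and the narrowest classes, 53 ratios had enough UMIs for B6.SLE123, of which 3 passed 1.5-fold, and 52 for Ang II, of which 2 did, where the share of all genes past it in 1 direction ran from 3.12% to 19.4% in B6.SLE123 and from 1.87% to 14.7% in Ang II classes. The 3 were Cybb in mature neutrophil-like and cDC2-like cells and Ncf1 in basophil or mast cell-like cells, and the 2 were Cybb in mature neutrophil-like and Ncf4 in cDC2-like cells.

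In monocyte-like cells Cybb and Ncf1 leaned the other way from Ncf4. Cybb was 1289 CPM in the control, 1139 in the Ang II and 992 in the B6.SLE123 library, and Ncf1 146, 127 and 109 CPM. The B6.SLE123 log2 ratios were -0.38 (-0.47 to -0.29) and -0.41 (-0.68 to -0.15), and no member passed 1.5-fold in either comparison, as 9.51% of all genes did upward and 5.68% downward in B6.SLE123, and 5.63% and 3.60% in Ang II. In classical monocyte-like cells the Cybb ratio was -0.46 (-0.59 to -0.34), and -0.26 without B6.SLE123 hashtag C0303, which at 737 CPM was lowest of the 5 B6.SLE123 hashtags with enough cells. The other 4 held 976 to 1325 CPM, against 997 to 1343 CPM in the control. For Ncf1 the ratio there was -0.36 (-0.69 to -0.02), and -0.70, past 1.5-fold, without the same hashtag. Markers of other cells moved with these classes: the erythroid list summed to 1.95, 3.92 and 5358 CPM in classical monocyte-like cells, and the neutrophil list to 524, 13753 and 10138 CPM in nonclassical ones. Their part was not tested. Cyba in monocyte-like cells had a ratio of -0.29 (-0.36 to -0.21) in the Ang II library and -0.10 (-0.16 to -0.04) in the B6.SLE123 library.

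Conventional dendritic cell-like cells, counted in 58 control, 76 Ang II and 107 B6.SLE123 cells, gave few UMIs per gene. In B6.SLE123 cells Cybb was 73.5 CPM (39 UMIs) against 133 CPM (42 UMIs), a log2 ratio of -0.86 (-1.52 to -0.19), and Ncf1 60.3 against 91.9 CPM, a ratio of -0.61 (-1.38 to 0.17). Ncf4 was 151 against 98.2 CPM, a ratio of 0.62 (0.00 to 1.27). These 3 passed 1.5-fold, 2 of them lower, where 8.66% of all genes were lower and 9.95% higher. The class mixes cDC1-like cells, with almost no Cybb, and cDC2-like cells, which were 28 of the 58 control and 38 of the 107 B6.SLE123 cells, and within cDC2-like cells the Cybb ratio was -0.72 (-1.46 to 0.02), where 8.63% of all genes were lower by 1.5-fold. In the Ang II library Ncf4 passed in conventional dendritic cell-like cells, at 168 CPM and a ratio of 0.77 (0.17 to 1.41), where 9.11% of all genes were higher. Within cDC2-like cells it stood at 167 against 58.8 CPM, from 42 and 8 UMIs, with an interval of the log2 ratio from 0.40 to 2.81, where 9.93% were higher. The low control value is that of 28 cells. In basophil or mast cell-like cells Ncf1 was 315 against 498 CPM in 25 and 33 cells, a ratio of -0.66 (-1.52 to 0.17), where 19.2% of all genes were lower.

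**Figure D5:**
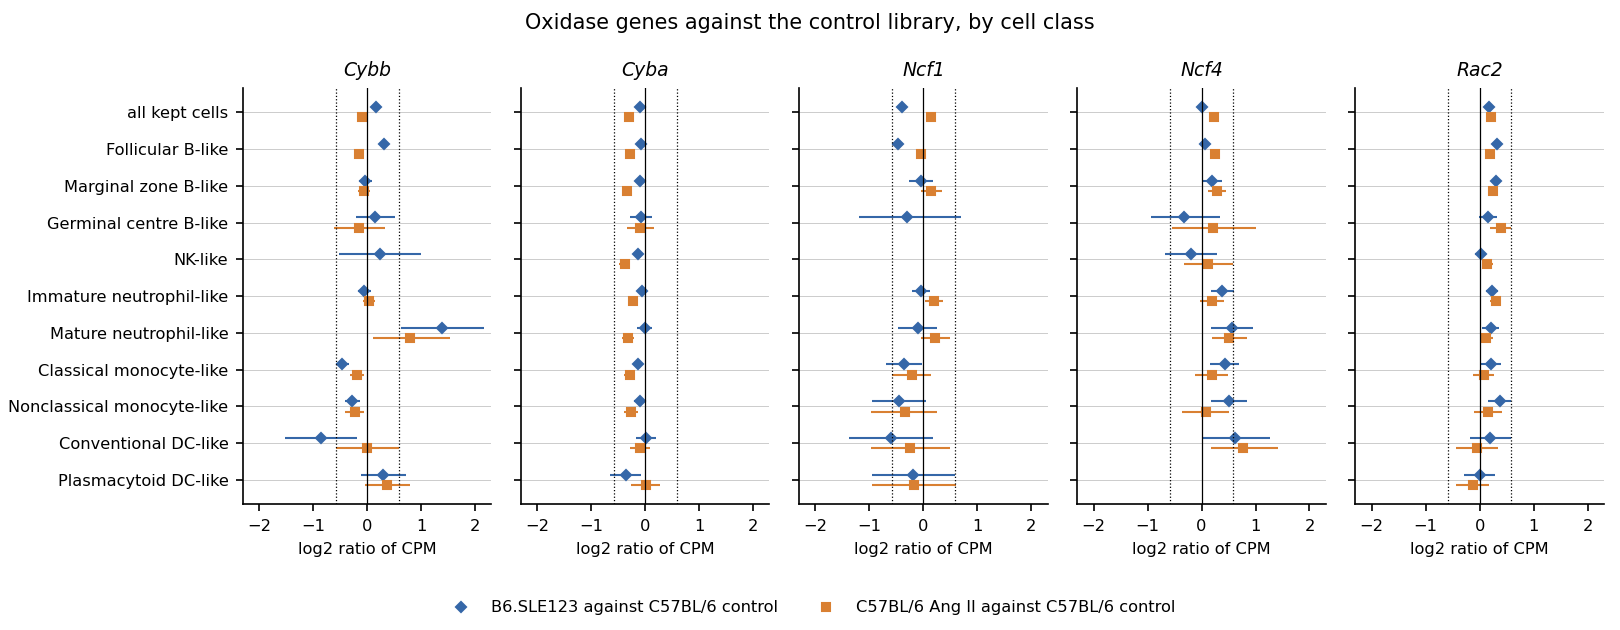
Log2 ratio of CPM to the control library (x axis) for each oxidase gene by class (rows), with 95% counting intervals as bars and dotted lines at 1.5-fold. Cybb in mature neutrophil-like cells is right of the upper line in both comparisons, and in conventional dendritic cell-like cells of the B6.SLE123 library it is left of the lower line.

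Of the partners of the oxidase, 8 were described: the GTPases Rac1 and Rap1a, Cybc1, which helps gp91phox mature, the proton channel Hvcn1, the kinases Prkcd and Prkcb that phosphorylate p47phox, the exchange factor Vav1, and Arhgdib, which keeps Rac GTPases in the cytosol. Over all kept cells 0 of 8 passed 1.5-fold in either comparison, with a median log2 ratio of -0.05 in B6.SLE123, beside -0.08 for all genes, and of 0.12 in Ang II cells, beside 0.03. Among B cells of the lupus-prone library Hvcn1 was at -0.43 and Prkcb at -0.47, lower in all 6 hashtags as 10.7% of all genes were, and Rap1a at 0.35, higher in all 6 as 9.88% were. The hashtags of the other 5 overlapped the control, with Prkcd at -0.25, Rac1 at 0.16, Cybc1 at 0.12, Vav1 at 0.01 and Arhgdib at -0.02. In Ang II B cells 4 of 8 were higher in all 6 hashtags, as 7.94% of all genes were, namely Cybc1 at 0.51, Vav1 at 0.38, Rap1a at 0.20 and Arhgdib at 0.12, while Hvcn1 at 0.17, Prkcb at 0.08, Prkcd at 0.03 and Rac1 at 0.03 overlapped. In immature neutrophil-like cells 1 of 8 passed in each comparison, Vav1 at 0.62 in B6.SLE123, where 19.4% of all genes were higher, and at 0.71 in Ang II cells, where 11.4% were, so the counts were near the share of all genes. The TMM shift of -0.19 given above takes the first value below 1.5-fold. For B6.SLE123 the other calls were Hvcn1 at -0.83 in NK cell-like cells (5.96% of all genes lower) and 0.61 in monocyte-like cells (9.51% higher), Cybc1 at 0.66 in classical monocyte-like cells (11.2% higher) and Arhgdib at -0.64 in cDC1-like cells (7.25% lower). Some of these levels were low. Over the 3 libraries Hvcn1 was 6.67 to 16.2 CPM in monocyte-like and 25.0 to 57.6 CPM in NK cell-like cells, against 185 to 282 CPM in B cell-like cells. Arhgdib in cDC1-like cells was 145 to 339 CPM, in gates of 21 to 56 cells. Intervals of the partner ratios are not given. For Ang II, Cybc1 passed in germinal centre B cell-like cells at 0.78, with Vav1 at 0.63 (9.74% of all genes higher), in mature neutrophil-like cells at 0.78 (7.67%) and in nonclassical monocyte-like cells at 0.64 (5.72%). The other Ang II calls were Prkcd at 0.71 in NK cell-like (7.91%), Prkcb at 0.69 in classical monocyte-like (6.12%), Vav1 at 0.62 in conventional dendritic cell-like (9.11%) and Arhgdib at 0.59 in cDC1-like cells (10%). Of the 3 transcription factors, 1 passed over all kept cells in each comparison, Cebpe at 1.34 in B6.SLE123 (26.3 against 10.4 CPM), where 11.0% of all genes were higher, and at 1.23 in Ang II cells (24.3 CPM), where 5.41% were. The share of immature neutrophil-like cells was also larger in both libraries, and its part in the Cebpe values was not tested. For B6.SLE123, Spi1, which encodes PU.1, was at 0.08 and Irf8 at 0.01 over all kept cells. By class, Cebpe also passed upward in B6.SLE123 neutrophil-like cells, where 14.9% of all genes were higher. Spi1 passed upward in Ang II germinal centre B cell-like cells (102 to 165 CPM over the 3 libraries), where 9.74% were higher. Spi1 was higher in mature (883 to 1069 CPM) than in immature neutrophil-like cells (357 to 497 CPM), the opposite of Cybb. Irf8 was highest in plasmacytoid dendritic cell-like cells, at 2045 to 2289 CPM, and in cDC1-like cells at 1089 to 1170 CPM, of which the first was high and the second at or near 0 in Cybb.

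The other NADPH oxidases and their partners were nearly absent. Of 9 genes, 5 (Nox3, Nox4, Duox2, Duoxa1 and Duoxa2) had 0 UMIs in all kept cells, and the 9 together had 161 UMIs, of which 143 were of Noxo1, an organizer of the Nox1 enzyme. Nox1 itself had 14 UMIs. Noxo1 was lower in the B6.SLE123 than in the control library, with 31 against 45 UMIs and a log2 ratio of -0.89 (-1.60 to -0.20). This passed 1.5-fold, as 8.65% of all genes did downward. In B cell-like cells it was -0.77, where 6.89% were lower. The Ang II ratio was 0.15 over all kept cells and 0.60, past 1.5-fold, in follicular B cell-like cells, where 3.92% were higher.

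The genes whose pattern over 45 units of class and library was most like each member, by Pearson correlation of log2(CPM + 1) among 9617 genes with at least 500 UMIs, were Tlr7 (0.75), Stambpl1 and Ifi27l2a for Cybb, Rsu1 (0.88), Zfand3 and Ubl3 for Cyba, Gsn (0.84), S100a11 and Serpinb1a for Ncf1, Lrrk2 (0.75), Parp4 and Cnr2 for Ncf4, and Ripor2 (0.84), Stk26 and Arhgdib for Rac2. Between the members themselves the correlations were lower, from 0.12 for Cybb and Ncf1 to 0.45 for Cyba and Ncf4. Units of 1 library share its depth, and units of 1 class share its cells, so these values describe the classes and carry no test.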

How the data were processed

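The deposited tables held raw UMI counts of genes and hashtags for every barcode, not normalized. The authors counted with Cell Ranger. The matrix headers name version 6.0.0, and the submitters' processing notes name build mm10. Members and lists were chosen with earlier results of these data known. Barcodes with over 200 and under 3500 genes and under 15% mitochondrial UMIs were kept. The study gives the first limits as RNA counts. Barcodes positive for several hashtags (13.5%, 11.4% and 18.0% of those passing, in the control, Ang II and B6.SLE123 library) were removed as doublets, and doublets within a hashtag could not be seen. Cells were gated on 14 marker lists, and genes of a class needed 50 UMIs over both libraries and a class 20 cells. CPM carry exact Poisson, ratios exact conditional and shares exact Clopper-Pearson 95% intervals, and a count of 0 a limit of 3 counts. Python 3.11.15, scipy 1.17.1, scanpy 1.11.5 and edgeR 4.0.16 (TMM only) were used, and scripts were tested on simulated data. The text names the 5 members, the fixed partner, factor and other oxidase lists, whatever their values, and the 3 genes most like each member. Of the partner list, 1 gene is not reported here. A gate is a cut in a range: 8.03% of B cell-like and 7.53% of neutrophil-like cells sat at the gate, and 2.57% and 20.5% passed another list too. Alternatives were other cell limits, no doublet removal, stricter gates, clusters, other scalings and each hashtag left out.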

Additional observations from a re-analysis of the deposited data

How the results depend on the processing

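No paired analysis was possible because each group was 1 library. Counts of members past 1.5-fold, recomputed for all kept, B cell-like, monocyte-like, neutrophil-like and mature neutrophil-like cells, changed only in the last 2 of these. The counts are 0 for neutrophil-like cells in both comparisons and 1 for mature ones in both. With the cell limits read as UMIs, neutrophil-like cells of B6.SLE123 gave 1 and mature ones 0 in both comparisons. With classes from clusters, B6.SLE123 gave 2 in neutrophil-like and 0 in mature cells, and TMM scaling and the stricter gate each gave 2 in its mature cells. In mature cells without a granule gene UMI, added after seeing the data, both comparisons gave 0. The Ang II ratio of Cybb in mature cells turned from 0.80 to -0.080 with UMI limits, to -0.68 with clusters and to -0.092 without granule gene UMIs. The cause was not tested. With each hashtag left out, the counts ran from 0 to 2 (B6.SLE123) and 0 to 1 (Ang II) in neutrophil-like cells, and from 0 to 2 and 1 to 2 in mature ones. The mature count was 2 in both without control hashtag C0301 or C0302, and in B6.SLE123 2 without its C0301, C0302 or C0306 and 0 without its C0303. Without control hashtag C0302 the Cybb ratio in neutrophil-like cells was 0.79 for B6.SLE123 and 0.68 for Ang II, both past 1.5-fold. Without B6.SLE123 hashtag C0303 that of mature cells was 0.32. Of the other log2 ratios, 640 moved by less than their counting interval and 74 by more under the settings, and 1453 and 39 with a hashtag left out. Shares after another thinning or none moved by more than their interval in 351 cases and by less in 39. Depth limits the classes of under 110 cells, where a gene had few UMIs.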
